A study of Mus musculus with 18 samples.

Results

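The genes described here belong to homologous recombination, the Fanconi anaemia pathway and the DNA damage checkpoint. They were taken by symbol from a list of 36 genes, using the probes of the deposited, not normalized signal table whose platform symbol is on the list. A probe was kept where its detection p was below 0.01 on at least 3 arrays, and each gene is represented by its brightest probe. Of the 36 genes, 29 had a probe of that symbol and 23 passed, out of 8446 genes tested in all. Brca1, Palb2, Fancb, Topbp1, Nbn and Exo1 had probes that were detected on 0 of the 18 arrays and have no fold here, and Xrcc2, Fanca, Fance, Fancf, Atr, Rbbp8 and Mdc1 were not analysed here. By role, 7 of 10 homologous recombination genes, 6 of 10 Fanconi genes, 4 of 6 kinases and checkpoint mediators and 6 of 10 genes of break sensing, signalling and resection passed.

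The samples were primary pre-B cells, the bone marrow precursors that have a heavy chain and are about to recombine their light-chain genes, measured on 1-colour Illumina MouseRef-8 arrays. Per the labels, marrow came from mice of 4 to 6 weeks of mixed C57BL/6 and BALB/c strain background and was cultured for 7 to 10 days with 5 ng/mL of IL-7 (interleukin 7), the cytokine on which these cells grow. All cells, controls included, carried an immunoglobulin heavy-chain transgene (IgH, given in the design text as μIgH) and a Bcl2 transgene, which keeps cells alive when a survival cytokine is removed. Rag-labelled cells were Rag-/-:IgH:Bcl2 (Rag1-/- in the design text) and lack the recombinase that cuts antigen receptor genes. Art-labelled cells were Art-/-:IgH:Bcl2 and lack Artemis, the nuclease that opens the hairpins RAG leaves at the ends it cuts, and Art:Nfkb2-labelled cells were Art-/-:Nfkb2-/-:IgH:Bcl2. Each genotype had 3 independent cultures, and each culture was measured in IL-7 and 2 days after IL-7 was withdrawn, which gave 6 groups of 3 arrays. Which promoters drive the transgenes is not stated in the labels.

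Between 39.3% and 42.4% of the 25697 probes were detected per array, replicate arrays correlated at 0.979 to 0.994, and the median raw signal was 129.3 to 163. All 9 tested pre-B cell markers of 12 listed were detected on every array. Myeloid markers were also present: 7 of 13 listed were tested, between 1 and 7 of them were detected per array, and their mean log2 level ran from 7.13 to 9.14 in IL-7 and from 5.66 to 7.74 after withdrawal. Of other lists, 2 of 5 natural killer cell markers and 1 of 6 stromal markers were tested, and 0 of the T cell and erythroid markers. The Rag1 and Nfkb2 probes gave detected signal on all arrays, and each was highest in the cells labelled as lacking the gene. Rag1 had log2 levels of 11.37 to 11.91 in Rag-labelled cells in IL-7 beside 9.22 to 10.06 in the other cells in IL-7, and Nfkb2 had 9.0 to 9.32 in withdrawn Art:Nfkb2-labelled cells beside 8.75 to 8.85 in withdrawn Art-labelled cells. Since the position of these probes against the deleted exons is not given, they check nothing about the labels. Y-linked transcripts were detected on all 6 Rag-labelled arrays, on none of the Art-labelled arrays and on both arrays of culture 3 of the Art:Nfkb2-labelled cells, so that genotype and sex-linked signal cannot be told apart between Art- and Rag-labelled cells. Against Rag-labelled cells, 1 of the 3 Art:Nfkb2-labelled cultures shares the Y-linked signal. The precision of every value is limited by the 3 arrays per group.

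As background, homologous recombination copies the intact sister chromatid to repair a broken or stalled chromosome, and it therefore works in S and G2 phase. The Fanconi pathway clears crosslinks that block replication forks: its core complex attaches ubiquitin to FANCD2 and FANCI, which bring in nucleases and recombination proteins. The kinases ATM and ATR sense breaks and single-stranded DNA and act through CHK2 and CHK1 to hold the cell cycle. Breaks made by RAG in pre-B cells are joined by a different route, nonhomologous end joining, which needs no sister chromatid.

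After 2 days without IL-7, 16 of the 23 tested members were lower in Rag-labelled cells, 15 in Art-labelled cells and 13 in Art:Nfkb2-labelled cells, at a limma adjusted p below 0.05 (Benjamini-Hochberg over all genes). Over all genes tested, 19.4%, 18.8% and 17.9% were lower in those comparisons. Higher were 3, 2 and 3 members, beside 25%, 26.2% and 22.7% of all genes. The median log2 change over the tested members was -0.99, -1.05 and -0.68, and over all genes 0.10, 0.11 and 0.086; with members that were not detected after withdrawal set at their bound, the members' medians were -0.59, -0.52 and -0.29. The same 13 members were lower in all 3 genotypes, beside 12.5% of all genes, and 1 member, Trp53bp1, was higher in all 3, beside 13.6%. In bulk RNA, fewer cells of a type and less RNA per cell cannot be told apart.

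The detection filter bears on these counts. Bard1, Rad51c, Xrcc3, Fancd2, Fanci and Chek1 passed it only through their arrays in IL-7, so that their lower level after withdrawal is partly built into their selection, and the counts are a description. Of the 17 members that pass on the withdrawn arrays alone, 10, 9 and 7 were lower in Rag-, Art- and Art:Nfkb2-labelled cells, beside 17.7%, 17.2% and 15.8% of the 7935 genes that pass in the same way. A fall of at least 2-fold, measured or as a bound, was found for 9, 10 and 8 members. By the fitted value alone the members numbered 11, 12 and 11, and 7.29%, 7.25% and 6.95% of all genes were called and lower by at least that much. The fitted changes over the 23 members were alike in the 3 genotypes, which share no arrays. Pearson's r across genes was 0.98 between Rag- and Art-labelled, 0.97 between Rag- and Art:Nfkb2-labelled and 0.97 between Art- and Art:Nfkb2-labelled cells. It is a description over genes that are not independent. It includes the 6 members that passed only through arrays in IL-7, so that part of the likeness is built into their selection.

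**Figure D1:**
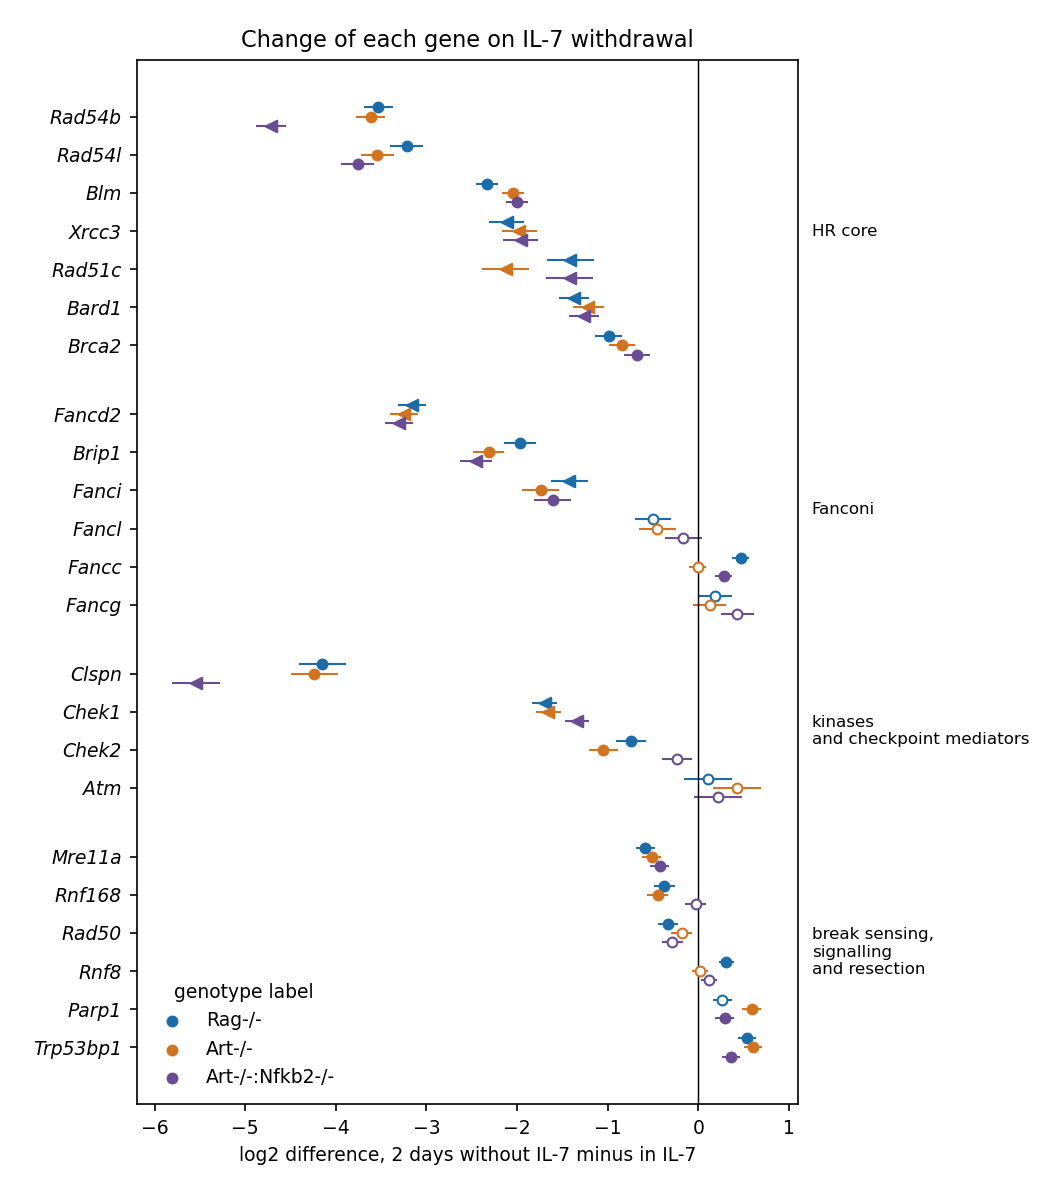
Each row is a gene, grouped by role, and the horizontal axis is the fitted log2 difference between cells withdrawn from IL-7 for 2 days and cells in IL-7, with its standard error as a bar, for the 3 genotypes (n = 3 arrays per group). Filled marks passed a limma adjusted p below 0.05, open marks did not, and triangles are genes not detected on any withdrawn array of that genotype, whose fitted value is no bound. Clspn, Rad54b and Rad54l lie farthest to the left, and Trp53bp1 is the gene that was higher in all 3 genotypes.

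Genes of active cell division fell on the same arrays. Of the S-phase list (replication and nucleotide supply genes), 15 of 15 tested genes were lower in each genotype, with fitted medians of -2.09, -2.31 and -2.15 in Rag-, Art- and Art:Nfkb2-labelled cells. With the 2, 3 and 4 undetected genes at their bound the S-phase medians were -2.09, -2.04 and -1.99. Tyms, thymidylate synthase, changed by -3.99, -3.27 and -3.23, and Uhrf1, a chromatin protein of replicating DNA, by -3.27, -3.39 and -4.37. Of the G2/M list, 10 of 10 were lower in each genotype, with fitted medians of -3.17, -3.20 and -4.64. With the 2, 2 and 3 undetected genes at their bound the G2/M medians were -3.17, -3.19 and -4.29. Birc5 (survivin) changed by -3.65, -3.76 and -5.56, and Cdk1, the mitotic kinase, by -3.61, -3.33 and -5.06. The mean log2 level of the 23 members was 8.86 to 9.16 on the arrays in IL-7 and 7.60 to 7.92 on the withdrawn arrays, while that of the S-phase list was 10.40 to 10.98 and 8.10 to 8.58. None of the 3 lists overlapped between the 9 arrays in IL-7 and the 9 withdrawn arrays, as the plot of list means shows. Of the members, 6 passed the detection filter only through arrays in IL-7, so that part of the separation is built into their selection. Of the S-phase genes, 15 were detected on each array in IL-7 and 11 to 12 on a withdrawn array. Of the G2/M genes, 9 to 10 were detected on an array in IL-7 and 6 to 8 on a withdrawn array. Of 7 myeloid markers, 4, 2 and 5 were called lower, beside 19.4%, 18.8% and 17.9% of all genes. All 7 were negative in each genotype, with fitted medians of -1.31, -0.95 and -1.42. Of these 7, 3, 5 and 2 were undetected in 1 or both groups, and with these at their bound the medians were -0.95, -0.19 and -1.34. Pre-B markers moved both ways: of 9 tested, 4, 2 and 3 were called higher and 1, 2 and 3 lower. Their medians were 0.34, -0.17 and -0.020 in Rag-, Art- and Art:Nfkb2-labelled cells. At the 2 ends of that list, Vpreb1, a surrogate light chain gene, changed by -1.70, -2.89 and -4.09, and Rag1 by 1.11, 1.92 and 1.28. The part of cell division or of other cells in the members' values was not tested.

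**Figure D2:**
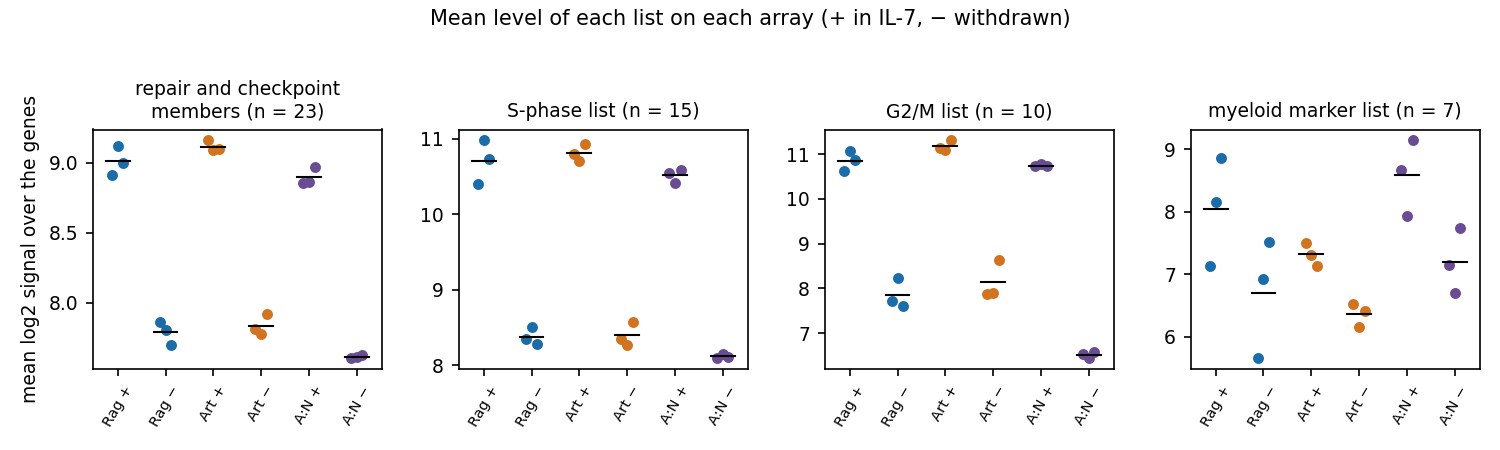
Mean normalized log2 signal over the genes of a list (vertical axis, a scale of its own in each panel) on each of the 18 arrays, for the 23 tested members, the S-phase list, the G2/M list and the myeloid marker list. Points are arrays, bars are group means, + is in IL-7, − is 2 days without IL-7 and A:N is Art-/-:Nfkb2-/-. The members and both division lists separate by IL-7 in every genotype, and the withdrawn Art:Nfkb2-labelled arrays are lowest in the G2/M list. Part of the members' separation is built into the detection filter, which 6 of the 23 passed only through arrays in IL-7.

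Promoter sequences are shown for the 2 ends of the range of members that fell in all 3 genotypes, Clspn with the largest mean fitted change and Mre11a with the smallest, and for Trp53bp1, which rose. They are the RefSeq windows of 250 bases before to 50 bases after the annotated start, read 5′ to 3′ on the gene's strand in GRCm38.p6. They lie at chr4:126556730-126557029 (plus strand) for Clspn, chr9:14784404-14784703 (plus strand) for Mre11a and chr2:121271358-121271657 (minus strand) for Trp53bp1. Capitals mark CCAAT on either strand (ATTGG where it lies on the opposite strand).
Clspn: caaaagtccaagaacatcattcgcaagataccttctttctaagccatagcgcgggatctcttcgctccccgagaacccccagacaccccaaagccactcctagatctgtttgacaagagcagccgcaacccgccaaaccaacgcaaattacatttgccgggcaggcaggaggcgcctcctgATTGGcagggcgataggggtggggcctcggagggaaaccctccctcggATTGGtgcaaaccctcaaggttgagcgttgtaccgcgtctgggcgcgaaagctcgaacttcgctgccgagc
Mre11a: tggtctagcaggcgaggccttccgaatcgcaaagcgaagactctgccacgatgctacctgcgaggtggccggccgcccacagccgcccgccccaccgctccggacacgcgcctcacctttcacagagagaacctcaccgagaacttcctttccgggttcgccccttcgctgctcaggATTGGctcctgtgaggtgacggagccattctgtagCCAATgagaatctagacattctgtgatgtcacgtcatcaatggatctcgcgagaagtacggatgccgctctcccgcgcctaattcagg
Trp53bp1: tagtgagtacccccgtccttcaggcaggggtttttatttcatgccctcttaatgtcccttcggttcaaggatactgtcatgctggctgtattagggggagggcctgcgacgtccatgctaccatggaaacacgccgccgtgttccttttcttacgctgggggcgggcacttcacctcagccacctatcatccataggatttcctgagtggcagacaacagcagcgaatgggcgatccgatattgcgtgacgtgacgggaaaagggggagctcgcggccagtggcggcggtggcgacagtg
The Clspn and Mre11a windows each held 2 matches to CCAAT and the Trp53bp1 window none.

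Motifs known from promoters of cell cycle genes were searched as exact letters on both strands, with no overlap between their letters: E2F (TTTCCCGC or TTTGGCGC), the cell cycle homology region CHR (TTTGAA) and CCAAT. Of the 36 listed genes, 29 had a window in the RefSeq table. An E2F match was present in 20.7% of these 29 genes, beside 1.8% of the 27025 genes with a window, and a CHR match in 6.9% beside 20.2%. CCAAT was found in 58.6% beside 41.1%. Among the 11 genes with a window that were lower in all 3 genotypes, 3 had an E2F match (Bard1, Brca2 and Rad51c), and among the 9 other tested genes with a window 2 had one (Chek2 and Fancg). A match is a description of letters in a window and says nothing here about a factor bound there.

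In the recombination core, 7 of 7 tested genes were called lower in every genotype, beside 19.4%, 18.8% and 17.9% of all genes. Bard1, Rad51c and Xrcc3 are among the 7 and passed the detection filter only through arrays in IL-7. Their fall is thus partly built into their selection. Rad54b and Rad54l, DNA translocases of homologous recombination, had the most negative fitted changes. On the arrays in IL-7, Rad54b had log2 levels of 10.03, 10.70 and 10.33 on the Rag-labelled arrays, 10.58, 10.83 and 10.58 on the Art-labelled arrays and 10.02, 10.03 and 10.06 on the Art:Nfkb2-labelled arrays. After withdrawal it had 6.67, 7.09 and 6.71, then 6.82, 7.05 and 7.27, and then 5.51, 5.21 and 5.25, in the same order of genotypes. Every withdrawn array lay below every array in IL-7, and the withdrawn Art:Nfkb2-labelled arrays, where the probe was not detected, lay below the other withdrawn arrays. The log2 change was -3.53 ± 0.16 (SE) in Rag-labelled cells (limma adjusted p = 5.115e-10) and -3.62 ± 0.16 in Art-labelled cells (adjusted p = 3.886e-10), and the bound for Art:Nfkb2-labelled cells was a level at least 13.4-fold lower (adjusted p = 1.972e-11). A bound of this kind sets the bright group's mean against, per array, the higher of the dim probe's own signal and the lowest signal among detected probes.

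Rad54l in IL-7 had log2 levels of 10.59, 11.21 and 10.75 on the Rag-labelled arrays, 11.11, 11.10 and 10.96 on the Art-labelled arrays and 10.62, 10.59 and 10.75 on the Art:Nfkb2-labelled arrays. Its withdrawn arrays had 7.69, 7.72 and 7.49, then 7.04, 7.61 and 7.89, and then 6.79, 7.04 and 6.85. The withdrawn arrays were again all lower, and here the probe stayed detected on all 18 arrays. The log2 changes were -3.22, -3.54 and -3.76, each ± 0.18 (SE), with limma adjusted p of 2.697e-09, 9.993e-10 and 3.511e-10.

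Of the other 5 genes of the core, 3 have only bounds after withdrawal and cannot be ranked. Blm, the RecQ helicase that dissolves recombination intermediates, stayed detected on all arrays and changed by -2.33, -2.05 and -1.998 on the log2 scale (Rag-, Art- and Art:Nfkb2-labelled). Xrcc3 and Rad51c, which act together in one complex of homologous recombination, were not detected on any withdrawn array, and were lower by at least 2.77, 2.61 and 2.23-fold and by at least 2.04, 2.61 and 1.85-fold. Bard1, the partner of BRCA1, was also undetected after withdrawal and was bounded only at 1.19, 1.09 and 1.03-fold or more. Brca2, the breast cancer susceptibility gene of this pathway, changed by -0.99 ± 0.14, -0.85 ± 0.14 and -0.68 ± 0.14 (limma adjusted p = 6.845e-05, 0.0002448 and 0.001682), and stayed detected on all arrays.

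Of the tested Fanconi genes, 3 of 6 were called lower in every genotype, beside 19.4%, 18.8% and 17.9% of all genes. They were Fancd2 and Fanci, the ubiquitinated pair, and Brip1, the helicase that works with BRCA1. Fancd2 and Fanci passed the detection filter only through arrays in IL-7, so that their fall is partly built into their selection. The core complex genes Fancc, Fancg and Fancl, detected on all 18 arrays, were not called lower in any genotype in the main fit. In IL-7, Fancd2 had log2 levels of 8.72, 9.16 and 8.72 on the Rag-labelled arrays, 9.12, 9.09 and 9.14 on the Art-labelled arrays and 8.71, 8.63 and 8.86 on the Art:Nfkb2-labelled arrays. Withdrawn arrays had 5.63, 5.92 and 5.56, then 5.69, 5.79 and 6.12, and then 5.28, 5.70 and 5.30, none of them detected. The groups lie far apart, and Fancd2 was lower by at least 5.78, 6.78 and 5.44-fold (limma adjusted p = 6.629e-10, 3.886e-10 and 2.002e-10).

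Brip1 had log2 levels in IL-7 of 8.26, 9.09 and 8.86 on the Rag-labelled arrays, 8.96, 9.03 and 8.86 on the Art-labelled arrays and 8.47, 8.50 and 8.40 on the Art:Nfkb2-labelled arrays. After withdrawal they were 6.56, 7.05 and 6.68, then 6.71, 6.69 and 6.50, and then 5.92, 6.22 and 5.87, with no detection in the last group. No withdrawn array reached the level of an array in IL-7. Brip1 changed by -1.97 ± 0.18 (SE) and -2.31 ± 0.18 in Rag- and Art-labelled cells (limma adjusted p = 3.703e-07 and 5.375e-08) and in Art:Nfkb2-labelled cells it fell at least 4.49-fold (adjusted p = 2.741e-08). In Rag-labelled cells Fanci fell at least 2.41-fold and it changed by -1.74 and -1.61 in the others, where 1 of the 3 withdrawn arrays detected it.

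Fancc, a core complex subunit, moved the other way in 2 genotypes. Its log2 levels in IL-7 were 7.53, 7.35 and 7.65 on the Rag-labelled arrays, 7.93, 7.76 and 7.91 on the Art-labelled arrays and 7.76, 7.65 and 7.54 on the Art:Nfkb2-labelled arrays. The withdrawn arrays had 8.04, 7.92 and 7.98, then 7.94, 7.81 and 7.83, and then 8.03, 7.88 and 7.88. The groups overlapped in Art-labelled cells and did not in the other genotypes. Fancc rose by 0.47 ± 0.09 (SE) in Rag-labelled cells (limma adjusted p = 0.0009448) and by 0.28 ± 0.09 in Art:Nfkb2-labelled cells (adjusted p = 0.02673), and its change in Art-labelled cells was -0.0059 ± 0.09 (adjusted p = 0.9658).

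The rise of Fancc in Art:Nfkb2-labelled cells was lost without array 2 or 3 in IL-7 or withdrawn array 1 (limma adjusted p = 0.06251, 0.1128 and 0.1084). Of its 3 probes that passed, 1 had changes of -0.035, -0.19 and -0.50, opposite to the probe used in Rag- and Art:Nfkb2-labelled cells. Under median scaling in place of quantile normalization neither rise of Fancc passed (adjusted p = 0.1736 and 0.1317). With the mean of its probes the change in Art:Nfkb2-labelled cells was 0.022 (adjusted p = 0.8475), and without the Y-positive culture 0.25 (adjusted p = 0.1318). Fancg changed by 0.19, 0.12 and 0.43 (adjusted p = 0.4336, 0.6086 and 0.07625), and Fancl, the ubiquitin ligase of the complex, by -0.50, -0.45 and -0.16 (adjusted p = 0.05421, 0.07952 and 0.5451). With the replicate block of same-numbered arrays of a culture, Fancg passed in Art:Nfkb2-labelled cells (adjusted p = 0.03076) and Fancl in Rag-labelled cells (adjusted p = 0.03635). Fancl also passed as lower in Rag- and Art-labelled cells with the mean of its probes (limma adjusted p = 0.01509 and 0.04304). Under median scaling it passed in Rag-labelled cells (adjusted p = 0.02714).

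Among the kinases and mediators, Clspn had the most negative fitted change of the tested members in every genotype, a rank that is not settled against members undetected after withdrawal. Claspin, its product, is the adaptor through which ATR activates CHK1 at stalled forks. In IL-7 its log2 levels were 11.14, 11.67 and 11.43 on the Rag-labelled arrays, 11.44, 11.54 and 11.62 on the Art-labelled arrays and 11.25, 11.11 and 11.26 on the Art:Nfkb2-labelled arrays. After withdrawal they were 7.34, 7.61 and 6.84, then 6.88, 7.09 and 7.92, and then 5.77, 5.17 and 6.05. The withdrawn Art:Nfkb2-labelled arrays did not detect the probe and lay below all others. The log2 change was -4.15 ± 0.26 (SE) in Rag-labelled cells (limma adjusted p = 8.620e-09) and -4.24 ± 0.26 in Art-labelled cells (adjusted p = 5.269e-09), and in Art:Nfkb2-labelled cells Clspn fell at least 30.2-fold (adjusted p = 2.487e-10). A second Clspn probe with the same detection changed by -4.18, -4.18 and -5.43.

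Chek1, the kinase that claspin serves, was dim. Its log2 levels in IL-7 were 6.64, 6.68 and 6.55 on the Rag-labelled arrays, 6.72, 6.27 and 6.63 on the Art-labelled arrays and 5.91, 5.95 and 6.42 on the Art:Nfkb2-labelled arrays, of which the last group detected it on 1 array. Withdrawn arrays had 4.94, 5.01 and 4.83, then 4.93, 4.94 and 4.79, and then 4.66, 4.885 and 4.70, none detected. The levels did not overlap between IL-7 and withdrawal, but the bounds were only 1.22-fold and 1.14-fold or more lower in Rag- and Art-labelled cells (limma adjusted p = 1.099e-07 and 1.293e-07), and Art:Nfkb2-labelled cells allowed no fold (adjusted p = 1.649e-06).

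Chek2, the kinase downstream of ATM, had log2 levels in IL-7 of 7.25, 7.45 and 7.53 on the Rag-labelled arrays, 8.09, 7.55 and 7.65 on the Art-labelled arrays and 7.02, 6.96 and 7.14 on the Art:Nfkb2-labelled arrays. After withdrawal they were 6.82, 6.89 and 6.27, then 6.68, 6.76 and 6.72, and then 7.03, 6.75 and 6.64. The groups overlapped only in Art:Nfkb2-labelled cells, whose level in IL-7 was already low. Among Rag-labelled cells Chek2 fell by 0.75 ± 0.16 (SE), and among Art-labelled cells by 1.05 ± 0.16 (limma adjusted p = 0.001946 and 0.0001129), and changed by -0.23 ± 0.16 in Art:Nfkb2-labelled cells (adjusted p = 0.2817). The difference between the last 2 changes was 0.81 ± 0.23 (adjusted p = 0.2926).

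Atm, the kinase that responds to double strand breaks, did not pass in any genotype, with changes of 0.11 ± 0.26, 0.43 ± 0.26 and 0.21 ± 0.26 (limma adjusted p = 0.7697, 0.2028 and 0.5499). The 95% intervals of these changes ran from -0.45 to 0.67, from -0.14 to 0.99 and from -0.35 to 0.77. With the replicate block, Atm passed in Art-labelled cells (adjusted p = 0.01798), where each of the 3 cultures had a higher level after withdrawal, by 0.60, 0.30 and 0.37.

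**Figure D3:**
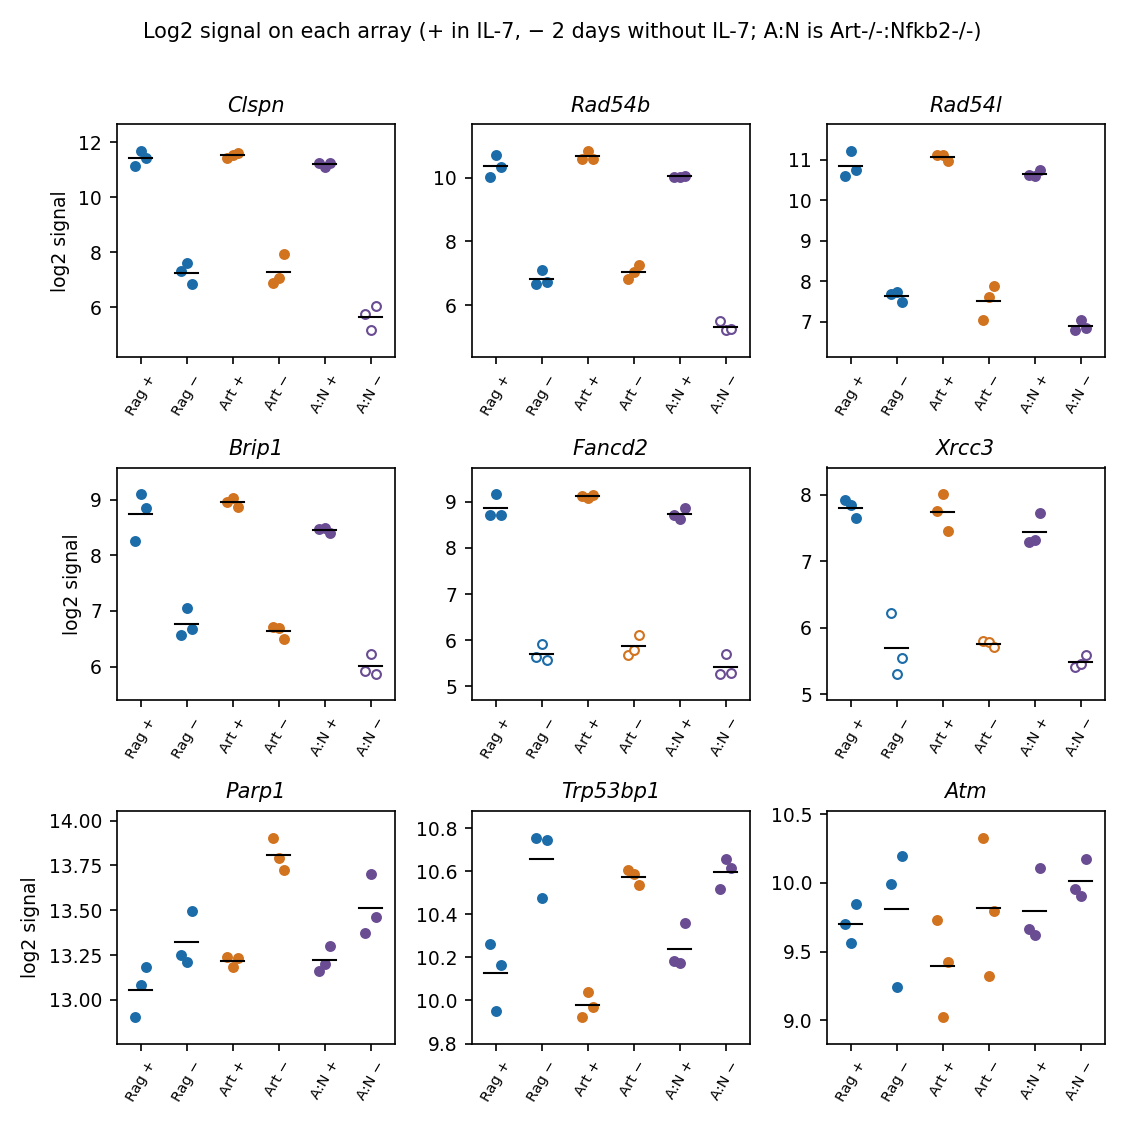
Normalized log2 signal (vertical axis, a scale of its own in each panel and not starting at 0) of 9 members on each of the 18 arrays. Points are arrays, bars are group means, open points are groups in which no array detected the probe, + is in IL-7, − is 2 days without IL-7 and A:N is Art-/-:Nfkb2-/-. Clspn, Rad54b and Brip1 went undetected after withdrawal in Art:Nfkb2-labelled cells only, Fancd2 and Xrcc3 in all 3 genotypes, Parp1 is highest on the withdrawn Art-labelled arrays, and Atm overlaps between groups.

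None of the tested genes of break sensing, signalling and resection changed by 2-fold. Mre11a, the nuclease of the complex that binds broken ends, had log2 levels in IL-7 of 9.68, 9.86 and 9.80 on the Rag-labelled arrays, 9.73, 9.79 and 9.60 on the Art-labelled arrays and 9.48, 9.69 and 9.74 on the Art:Nfkb2-labelled arrays. After withdrawal it had 9.28, 9.02 and 9.28, then 9.20, 9.18 and 9.19, and then 9.04, 9.33 and 9.27. Each withdrawn group lay just below its group in IL-7. Mre11a fell by 0.59, 0.52 and 0.42, each ± 0.10 (SE), with limma adjusted p of 0.0003737, 0.0009455 and 0.004580. Of its 3 passing probes, the one detected on only 3 arrays changed by -0.16, -0.34 and 0.034. The call in Art:Nfkb2-labelled cells was lost with the mean of the probes (adjusted p = 0.1621) and under median scaling (adjusted p = 0.1004).

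Rad50, the partner of MRE11, changed by -0.34 ± 0.11 in Rag-labelled cells (limma adjusted p = 0.02461), a call lost without array 2 or 3 in IL-7 or withdrawn array 2 (adjusted p = 0.08877, 0.07694 and 0.1166), under median scaling (0.07997) and with only the groups compared in the fit (0.1577). In Art- and Art:Nfkb2-labelled cells its changes were -0.18 and -0.29 (adjusted p = 0.1986 and 0.05500). Rnf168, a ubiquitin ligase of damaged chromatin, had log2 levels in IL-7 of 8.30, 8.09 and 8.10 on the Rag-labelled arrays, 8.46, 8.34 and 8.43 on the Art-labelled arrays and 8.02, 8.09 and 7.91 on the Art:Nfkb2-labelled arrays. Its withdrawn arrays had 7.90, 7.99 and 7.48, then 8.04, 7.87 and 7.98, and then 8.003, 7.91 and 8.03. The groups overlapped in Art:Nfkb2-labelled cells alone. Among Rag-labelled cells Rnf168 fell by 0.37 ± 0.12 (SE), and among Art-labelled cells by 0.45 ± 0.12 (limma adjusted p = 0.01614 and 0.005463), the former lost without array 1 in IL-7 or withdrawn array 3 (adjusted p = 0.06066 and 0.0822), and changed by -0.026 ± 0.12 in Art:Nfkb2-labelled cells (adjusted p = 0.8793).

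Trp53bp1, Parp1 and Rnf8 were the members of this role with higher levels. Trp53bp1 encodes 53BP1, which protects broken ends from resection and favours end joining. Its log2 levels in IL-7 were 10.26, 9.95 and 10.16 on the Rag-labelled arrays, 9.92, 10.04 and 9.97 on the Art-labelled arrays and 10.19, 10.17 and 10.36 on the Art:Nfkb2-labelled arrays. After withdrawal they were 10.76, 10.47 and 10.75, then 10.60, 10.59 and 10.54, and then 10.52, 10.66 and 10.61. All withdrawn arrays lay above all arrays in IL-7. Trp53bp1 rose by 0.53, 0.60 and 0.36, each ± 0.10 (SE), with limma adjusted p of 0.0005141, 0.0001721 and 0.009347.

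Parp1, the enzyme that marks DNA breaks with poly(ADP-ribose), was bright. It had log2 levels in IL-7 of 12.91, 13.08 and 13.18 on the Rag-labelled arrays, 13.24, 13.18 and 13.23 on the Art-labelled arrays and 13.16, 13.20 and 13.30 on the Art:Nfkb2-labelled arrays. After withdrawal it had 13.25, 13.21 and 13.50, then 13.91, 13.79 and 13.72, and then 13.37, 13.70 and 13.46. Within each genotype the withdrawn arrays were higher. Parp1 rose by 0.59 ± 0.11 (SE) in Art-labelled cells (limma adjusted p = 0.0003688) and by 0.29 ± 0.11 in Art:Nfkb2-labelled cells (adjusted p = 0.03932). Its change in Rag-labelled cells was 0.26 ± 0.11 (adjusted p = 0.05428, or 0.03337 with the replicate block). With the mean of its probes the change in Rag-labelled cells was 0.36 and passed (limma adjusted p = 0.003816). Parp1 had 3 passing probes, each detected on all 18 arrays. Of those not used, 1 changed by 0.41, 0.23 and 0.55 in Rag-, Art- and Art:Nfkb2-labelled cells. Another changed by 0.42, 0.59 and 0.41. The order of the genotypes therefore depends on the probe. The call in Art:Nfkb2-labelled cells was lost without array 1 or 2 in IL-7, withdrawn array 2 or 3, or withdrawn Art-labelled array 2, with adjusted p of 0.1143, 0.09358, 0.189, 0.05822 and 0.05, and under median scaling (0.06017).

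Rnf8, the ligase that acts before RNF168, had log2 levels in IL-7 of 10.68, 10.69 and 10.65 on the Rag-labelled arrays, 10.80, 10.82 and 10.84 on the Art-labelled arrays and 10.84, 10.84 and 10.85 on the Art:Nfkb2-labelled arrays. The withdrawn arrays had 10.83, 11.08 and 11.04, then 10.77, 10.825 and 10.92, and then 10.79, 11.02 and 11.06. Only the Rag-labelled groups did not overlap. Rnf8 rose by 0.31 ± 0.09 (SE) there (limma adjusted p = 0.008801) and changed by 0.019 and 0.12 in Art- and Art:Nfkb2-labelled cells (adjusted p = 0.878 and 0.3037). The call was lost under median scaling (adjusted p = 0.08558), with the mean of the probes (0.1709) and with only the groups compared in the fit (0.103). Its second passing probe changed by 0.10, -0.13 and 0.33.

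**Figure D4:**
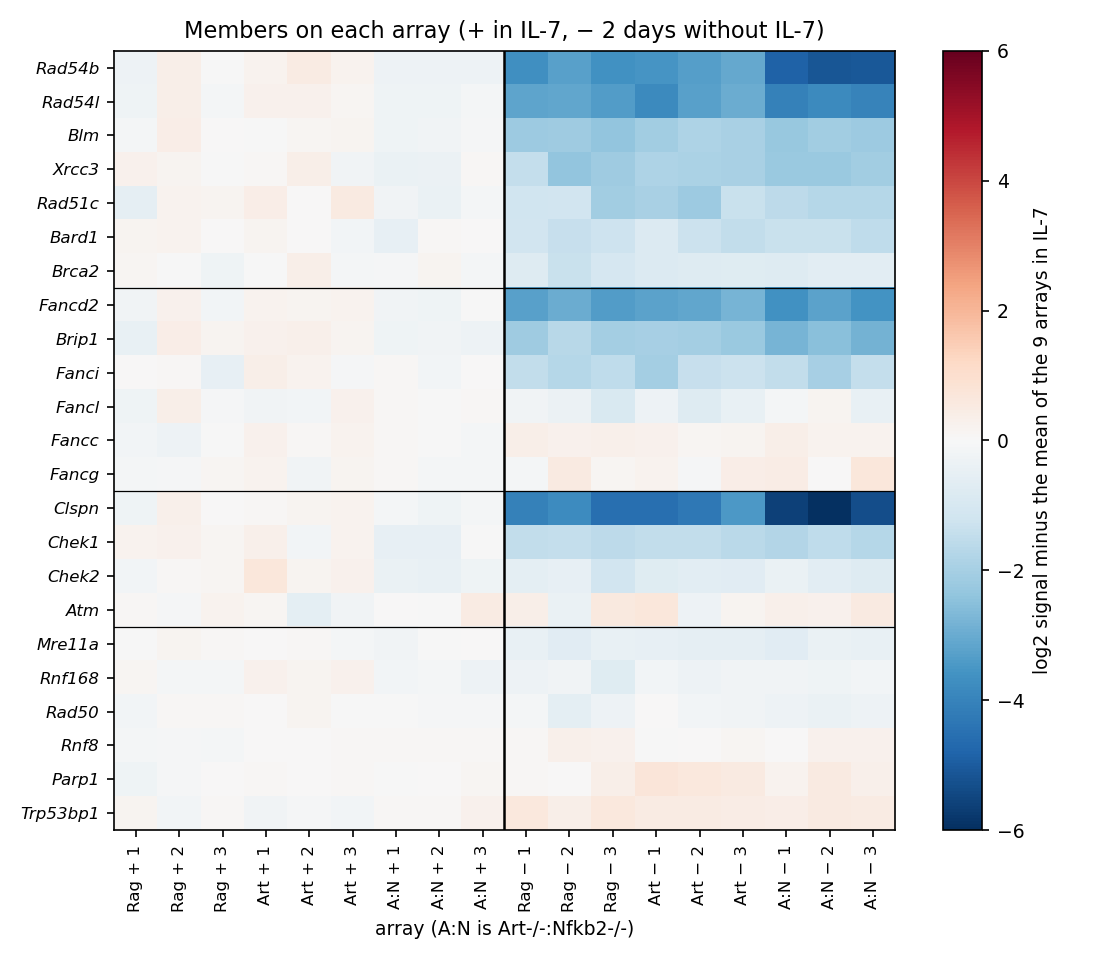
Colour is the log2 signal of each tested member (rows, grouped by role) on each array (columns), minus the mean of the same gene over the 9 arrays in IL-7, on a scale from -6 to 6. The 9 arrays in IL-7 stand left of the vertical line and the 9 withdrawn arrays right of it, and A:N is Art-/-:Nfkb2-/-. The darkest cells are Clspn and Rad54b on the 3 withdrawn Art:Nfkb2-labelled arrays, and the lowest block of rows, the break sensing genes, is pale throughout.

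A further 60 genes of the same pathways were listed, with results of these data known, and 34 of them were tested. Of these, 19, 19 and 16 were lower in Rag-, Art- and Art:Nfkb2-labelled cells, beside 19.4%, 18.8% and 17.9% of all genes. Higher were 4, 5 and 4, beside 25%, 26.2% and 22.7%. The median fitted log2 changes were -0.58, -0.43 and -0.29. With the 5, 4 and 4 undetected genes set at their bound the medians were -0.36, -0.43 and -0.21. A gene detected only in IL-7 can pass the detection filter, and its fall is then partly built into its selection. The counts of this list are therefore a description. Rad51ap1 is such a gene: it was not detected on any withdrawn array and had fitted changes of -3.32, -3.72 and -3.35. Cdc25c, the phosphatase that releases CDK1, had -3.01, -2.92 and -3.65, where the first and last are fitted values against undetected groups. Timeless, a fork protection protein, was measured at -3.10, -2.55 and -2.59. The rises were smaller: Rad52 changed by 0.74, 0.66 and 0.81, Rad51d by 0.50, 0.63 and 0.62, and Rad17, the clamp loader of the checkpoint, by 0.37, 0.57 and 0.51. These 6 genes passed in all 3 genotypes. Between withdrawn Art- and Rag-labelled cells 1 of the 34 was called higher and 1 lower, beside 19% of all genes. Between Art:Nfkb2- and Art-labelled cells 0 were higher and 1 lower, beside 3.99%. Between Art:Nfkb2- and Rag-labelled cells 4 were higher and 3 lower, beside 25.6%. The most negative fitted differences were -0.64, -1.07 and -0.76, and the most positive 0.44, 0.63 and 0.59. Among the rises, Rad51d was higher by 0.41 in Art- and by 0.59 in Art:Nfkb2- than in Rag-labelled cells (limma adjusted p = 0.003693 and 0.000141). Rpa1, a subunit of the single-strand binding protein, was higher by 0.41 in the latter comparison (adjusted p = 0.004034).

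Between genotypes, few members were called. Bard1, Rad51c, Xrcc3, Fancd2 and Chek1 were detected on no withdrawn array, so that no difference between withdrawn genotypes could be measured for them. After withdrawal, 1 of 23 was called between Art- and Rag-labelled cells, beside 19% of all genes. It was Parp1, higher by 0.49 ± 0.11 (SE) in Art-labelled cells (limma adjusted p = 0.003751), and all 3 withdrawn Art-labelled arrays were above the 3 withdrawn Rag-labelled ones. The members' median difference was 0.016, beside -0.013 over all genes. Atm, Chek2 and Trp53bp1, which act in the response to breaks, were not called in this comparison. On the same arrays 5 of 9 pre-B markers were lower in Art-labelled cells (Ebf1, Vpreb1, Vpreb3, Il7r and Rag1, the gene of the label), with a median of -0.77 and all 9 negative, and their part in the Parp1 result was not tested.

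Between withdrawn Art:Nfkb2- and Art-labelled cells, 2 of 23 members were called, beside 3.99% of all genes. Rad54b was at least 1.69-fold lower (limma adjusted p = 9.583e-06) and Clspn at least 2.01-fold lower (adjusted p = 0.001236) in Art:Nfkb2-labelled cells, with no overlap of the arrays in the values given above. Brip1 was at least 1.27-fold lower with an adjusted p of 0.05843, or 0.03699 with the replicate block. On the same arrays 9 of 10 tested G2/M genes were also lower, with a fitted median of -1.80, or -1.49 with 3 undetected genes at their bound. The mean log2 level of that list was 6.45 to 6.57 in Art:Nfkb2-labelled and 7.86 to 8.63 in Art-labelled withdrawn cells, and 3 of 15 S-phase genes were lower and 1 higher. The mean myeloid level was 6.70 to 7.74 beside 6.16 to 6.52, where 1 of 7 markers, Fcgr3, was called higher, 5 were positive and 2 negative. The part of the lower division genes, or of the myeloid signal, in these 2 results was not tested.

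Between withdrawn Art:Nfkb2- and Rag-labelled cells, 4 of 23 members were called, all lower, beside 25.6% of all genes in either direction. Rad54l was lower by 0.74 ± 0.18 (SE; limma adjusted p = 0.007002), and Rad54b, Brip1 and Clspn were lower by at least 1.45, 1.39 and 1.96-fold (adjusted p = 5.506e-06, 0.004181 and 0.000273). The Brip1 call was lost without background correction (adjusted p = 0.05001). Of the G2/M list 8 of 10 were lower in this comparison, with a fitted median of -1.44, or -1.20 with 3 undetected genes at their bound. Of the pre-B markers 5 of 9 were lower, with a median of -0.89, Vpreb1 by 2.76 ± 0.23 (SE) and Ebf1 by 1.38 ± 0.15. Of the myeloid markers 1 of 7 was called, Fcgr3, at least 3.599-fold higher. In sign 4 of these 7 were positive and 3 negative, with a median of 0.0034. The part of these shifts in the members' values was not tested. These comparisons share the Art:Nfkb2-labelled arrays.

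In IL-7, calls between genotypes were few, and each was lost on leaving out some single arrays. Fancc was higher by 0.36 ± 0.09 (SE) in Art- than in Rag-labelled cells (limma adjusted p = 0.03298), 1 of 23 members beside 6.46% of all genes, and the call was lost without Rag-labelled array 1 or 2 or Art-labelled array 1 or 3 (adjusted p = 0.05154, 0.1198, 0.1124 and 0.1076). Rad54b and Chek2 were lower by 0.63 ± 0.16 and 0.73 ± 0.16 in Art:Nfkb2- than in Art-labelled cells (adjusted p = 0.04248 and 0.02007), 2 of 23 beside 4.39%. In that comparison 18 of 23 members were negative, 7 of 7 in the recombination core, and the median was -0.21 beside 0.0070 over all genes. At an unadjusted p below 0.05, 11 of 23 members passed. The shares of all genes at that threshold or with a negative sign are not given here, so that these counts are a description. On the same arrays 10 of 10 G2/M and 14 of 15 S-phase genes were negative, of which 1 and 0 were called. The myeloid markers Fcgr3, Cd14 and Elane were called higher, Fcgr3 by 3.39 ± 0.34 (SE) and Cd14 by 1.74 ± 0.38, as was the natural killer cell marker Nkg7, by 1.92 ± 0.34. Their part in these results was not tested. The Rad54b call was lost without any 1 of the 6 arrays compared (adjusted p of 0.08269 to 0.1441) or of 4 other arrays (Rag-labelled array 3 in IL-7, withdrawn Art-labelled array 2 and withdrawn Art:Nfkb2-labelled arrays 2 and 3). The Chek2 call was lost without Art-labelled array 1 or Art:Nfkb2-labelled array 1 or 2 (adjusted p = 0.09662, 0.07044 and 0.07089). Chek1 was lower by 0.53 ± 0.14 in Art:Nfkb2- than in Rag-labelled cells (adjusted p = 0.01761), 1 of 23 beside 11.4%, a call lost without Rag-labelled array 2 or Art:Nfkb2-labelled array 1 or 2 (adjusted p = 0.06016, 0.09013 and 0.08417).

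The difference of the withdrawal responses was tested directly. Of 23 members, 0 differed between Art- and Rag-labelled cells and 0 between Art:Nfkb2- and Art-labelled cells, beside 1.27% and 0.213% of all genes, all by adjusted p. At an unadjusted p below 0.05, 3 and 5 members passed, and the share of all genes at that threshold is not given here. Between Art:Nfkb2- and Rag-labelled cells 1 member differed, beside 1.94%: the fitted response of Rad54b was lower by 1.18 ± 0.23 (SE; limma adjusted p = 0.01343). Since the probe was not detected on the withdrawn Art:Nfkb2-labelled arrays, the fitted size is no bound. With the replicate block the response of Fancc also differed between Art- and Rag-labelled cells (-0.48 ± 0.11, adjusted p = 0.04152, against 0.1087 without the block), that of Rad54b between Art:Nfkb2- and Art-labelled cells (-1.10 ± 0.16, adjusted p = 0.01684, against 0.07795) and that of Clspn between Art:Nfkb2- and Rag-labelled cells (-1.39 ± 0.28, adjusted p = 0.01923, against 0.07139), beside 4.3%, 1.09% and 5.1% of all genes called in those fits.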

How the data were processed

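Per the file headers, the authors deposited probe intensities that are not normalized, each with its detection p-value, and a series matrix of background-subtracted intensity values. The submitters' processing notes name Partek and GenomeStudio without versions. Sample titles gave the groups and the culture numbers. Columns of per-sample values not used: 0.

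Background was removed by normexp using those detection p-values; quantile normalization and log2 with an added 16 followed (neqc in limma 3.58.1, R 4.3.3), which understates changes of dim genes. Of 25697 probes, 23978 had 1 platform symbol, 0 had several and 1719 none; 11356 passed the detection filter and gave 8446 genes. All genes were fitted together over the 6 groups with lmFit and eBayes (two-sided), and p-values were adjusted by Benjamini-Hochberg in each of 12 comparisons. The fit was tested on simulated data. Levels are not compared between genes.

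The design text calls the cultures independent, and each culture gave an array in IL-7 and 1 after withdrawal. Deviations of same-numbered arrays from their group means correlated at 0.374 to 0.588 in the 9 pairs, so the numbers were taken to pair the arrays. The main fit has no block, and blocked values stand beside the results they change.

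Values on every array are given for the 2 most negative mean fitted changes per role, the 4 largest mean changes among members called higher in a genotype, and the members called between genotypes. The members, lists and naming rule were chosen with earlier results of these data known. Alternatives were median scaling, no background correction, the series matrix values, no or a stricter detection filter (9 arrays), the mean of passing probes, array weights, the replicate block, only the groups compared, and leaving out each array or the Y-positive culture.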

Additional observations from a re-analysis of the deposited data

Results flagged for a closer look

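The withdrawal response of Rad54b differed between genotypes by the test of the difference itself. It was lower by 1.18 on the fitted log2 scale in Art:Nfkb2- than in Rag-labelled cells (difference -1.18 ± 0.23 SE, 95% interval -1.68 to -0.69, limma adjusted p = 0.01343), and the changes of the 3 cultures were -4.52, -4.81 and -4.81 in Art:Nfkb2-labelled and -3.36, -3.61 and -3.62 in Rag-labelled cells. The probe was undetected on the 3 withdrawn Art:Nfkb2-labelled arrays. In the same contrast 4 of 10 tested G2/M genes were also called lower, beside 1.94% of all genes in either direction. The median fitted difference over that list was -1.36. It is no bound, since 6 to 7 of the 10 genes were detected on a withdrawn Art:Nfkb2-labelled array. The part of these genes in the Rad54b result was not tested. Without the Y-positive culture the Rad54b difference was -1.13 (limma adjusted p = 0.07806), and without background correction -0.33 (adjusted p = 0.4544).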

How the results depend on the processing

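On withdrawal, leaving out 1 array gave 15 to 17 members lower in Rag-, 15 to 16 in Art- and 13 to 14 in Art:Nfkb2-labelled cells, and 3 to 4, 2 to 2 and 1 to 4 higher. Under median scaling 1 was higher in Rag-labelled cells, and without the Y-positive culture 1 in Art:Nfkb2-labelled cells. Members called between withdrawn Art:Nfkb2- and Art-labelled cells were 4 with array weights; leaving out arrays gave 1 to 1, 2 to 4 and 4 to 5 in the 3 withdrawn comparisons (Art with Rag, Art:Nfkb2 with Art, Art:Nfkb2 with Rag) and 0 to 1, 0 to 3 and 0 to 2 in IL-7. Between Art and Rag in IL-7, 0 were called under median scaling, no background correction, mean of probes, array weights and only the groups compared. Between Art:Nfkb2 and Art in IL-7, 1 was called under median scaling, series matrix values, no detection filter and without the Y-positive culture, and 5 with array weights. Between Art:Nfkb2 and Rag in IL-7, 2 were called under median scaling and 0 with no background correction, the stricter filter, mean of probes and only the groups compared. Response differences called 1 (Art minus Rag, replicate block), 1 (Art:Nfkb2 minus Art, replicate block, array weights and only the groups compared), and 2 (replicate block) or 0 (no background correction, without the Y-positive culture) for Art:Nfkb2 minus Rag, with 0 to 0, 0 to 1 and 1 to 2 on leaving out arrays. Where a count fell under another scaling, filter or probe rule, the cause was not tested.

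Among the single-gene results recomputed (not every uncalled difference between genotypes was), signs turned only in withdrawal changes that were not called. Leaving out 1 array gave -0.089 to 0.39 for Atm in Rag-labelled cells, -0.059 to 0.027 for Fancc, -0.019 to 0.24 for Fancg and -0.021 to 0.052 for Rnf8 in Art-labelled cells, and -0.076 to 0.014 for Rnf168 in Art:Nfkb2-labelled cells. The mean of probes gave -0.054 for Rnf8 in Art-labelled cells, and median scaling 0.039 for Rnf168 in Art:Nfkb2-labelled cells. Beyond the calls named with the results, the replicate block changed no other call. Under median scaling the members' median turned from 0.12 to -0.018 between Art and Rag in IL-7, from -0.048 to 0.020 between withdrawn Art:Nfkb2 and Rag, and from -0.064 to 0.11 for the response of Art minus Rag. Median scaling shifted the all-gene median from 0.10 to -0.0063 for withdrawal of Rag-labelled cells, where calls that are higher went from 56.2% to 33.8% of calls. In IL-7 it went from -0.012 to -0.15 (56.2% to 33.9%) between Art and Rag and from -0.0060 to -0.16 (58.6% to 33.1%) between Art:Nfkb2 and Rag. For response differences it went from 0.0048 to 0.11 (61.7% to 77.2%, Art minus Rag), -0.019 to 0.085 (50% to 37.5%, Art:Nfkb2 minus Art) and -0.0083 to 0.20 (51.2% to 80.5%, Art:Nfkb2 minus Rag), and the share between withdrawn Art:Nfkb2 and Art went from 44.5% to 56.6%. Low signal over background limits Chek1, Bard1 and the other members undetected after withdrawal to bounds.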
